A study of Oryza sativa with 4 samples.

Results

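The short arm of rice chromosome 4 is described here by what its annotated loci express in the young panicle, the developing inflorescence. Its members were all rows of the deposited expression table that carry exactly 1 rice locus ID, lie on chromosome 4 and start below 9.7 Mb, with 3 loci left out by name. This gave 1444 rows, of 54168 rows with 1 locus ID in the whole table. They hold 1433 different IDs, because 11 IDs stand on 2 rows each. The 3660 remaining rows of chromosome 4 served for comparison.

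The study set the control line Nip, a japonica rice grown in soil, beside osrdr2-3, whose genotype the labels give as DES1 mutant. Per the labels, RNA of young panicles was enriched on oligo(dT) beads and sequenced, with 2 samples of each genotype. Values below are those of the 2 Nip libraries, which carry no mutation or treatment by their labels. The osrdr2-3 samples are not analysed here. Whether the 2 libraries came from separate plants is not stated, so their spread may be technical.

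Heterochromatin is the condensed, repeat-rich part of a chromosome, in which transposons outnumber ordinary genes and most sequence is kept untranscribed by DNA and histone methylation. In plants, RNA-directed DNA methylation, the pathway of the RNA-dependent RNA polymerase RDR2, adds methylation to transposons, mainly at their edges and near genes. The short arms of rice chromosomes 4 and 10 are known from cytology as strongly heterochromatic.

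Most loci of the arm were listed at 0. The unit is FPKM, a fragment count divided by transcript length and by the size of the library. In replicate 1, 1053 of the 1444 rows (72.9%) were listed at 0 FPKM, and in replicate 2, 1059 (73.3%). In both libraries 1011 rows (70.0%) stood at 0, against 1492 of 3660 rows (40.8%) on the rest of the chromosome and 45.2% of all rows with 1 locus ID. The gap between the arm and the rest was 29.5 percentage points in replicate 1 and 29.6 in replicate 2. The libraries themselves differed by 0.416 points on the arm and 0.301 points on the rest, so the gap was far larger than the spread between them. Rows of a chromosome are not replicates and only 1 genotype was used, so no test over rows was made here or below. A row at 0 is one for which the authors' estimate was 0, and the depth of the libraries is unknown.

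Expressed loci were fewer and lower on the arm. At or above 1 FPKM in both libraries were 213 rows (14.8%), against 1466 (40.1%) on the rest and 36.9% of all rows. Among rows above 0 in both libraries, 343 on the arm and 1963 on the rest, the median was 2.96 FPKM on the arm and 6.51 on the rest in replicate 1. In replicate 2 these medians were 3.03 and 6.45 FPKM. The arm therefore had a smaller share of expressed rows, and its expressed rows had a lower median level in each library. The upper end was not missing: 93 rows (6.44%) had a mean of 10 to 100 FPKM and 8 rows (0.554%) a mean of 100 FPKM or more, against 20.4% and 1.97% on the rest.

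**Figure D1:**
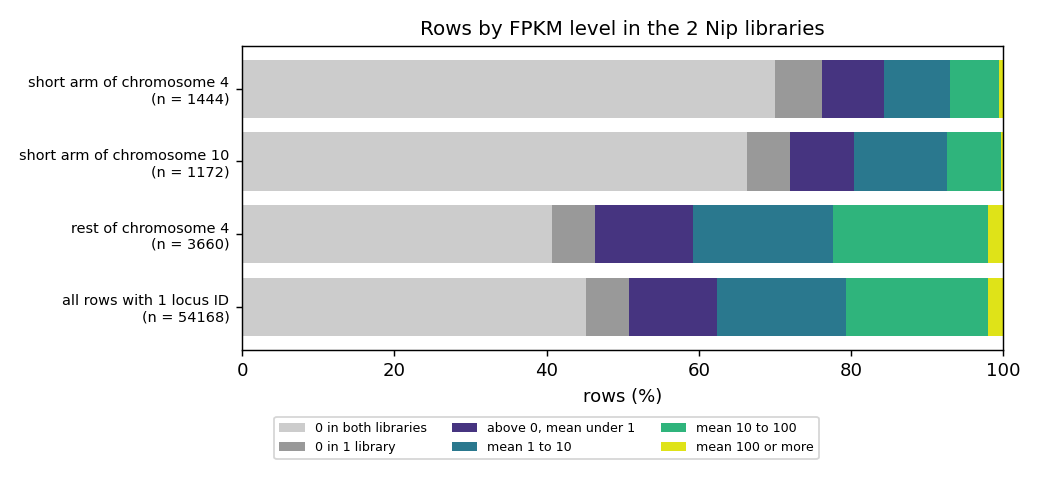
Share of rows (%) in 6 classes of FPKM in the 2 Nip libraries, for the short arms of chromosomes 4 and 10, the rest of chromosome 4 and all rows with 1 locus ID. The class at 0 in both libraries takes 70.0% on the short arm of chromosome 4, 66.4% on that of chromosome 10 and 40.8% on the rest of chromosome 4.

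The short arm of chromosome 10, taken as rows starting below 8.1 Mb, looked much like it. Of its 1172 rows, 66.4% were at 0 in both libraries and 18.9% reached 1 FPKM in both. The median of its rows above 0 in both libraries was 2.94 FPKM in replicate 1 and 2.86 in replicate 2, close to the 2.96 and 3.03 FPKM of the chromosome 4 arm.

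Within the arm the share at 0 varied along its length. It was lowest at the tip, where 55.1% of the 147 rows of the bin from 0 to 1 Mb were at 0 in both libraries and 30.6% reached 1 FPKM in both. Between 2 and 4 Mb the arm was quietest, with 83.2% and 82.7% of rows at 0 in the 2 bins of 1 Mb and 4.90% and 4.67% at or above 1 FPKM. From 5 to 6 Mb the share at 0 went down to 62.1%, and 21.4% of rows reached 1 FPKM. Next to the boundary, the rows from 9 to 9.7 Mb were at 0 in 77.9% of cases. Taken by library, the bin from 2 to 3 Mb stood at 83.9% in replicate 1 and 87.4% in replicate 2, that from 3 to 4 Mb at 86.0% and 85.3%, and the tip at 56.5% and 57.8%. The 2 quietest bins overlapped between libraries, and both lay far above the tip.

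The boundary at 9.7 Mb was not where expression rose. On the far side, the bin from 10 to 11 Mb had the highest share at 0 on chromosome 4, 87.4% of 151 rows, with 3.31% at or above 1 FPKM. Every bin from 10 to 18 Mb had at least 60.4% of rows at 0. The share was 51.4% from 18 to 19 Mb and 30.9% from 19 to 20 Mb, and beyond 20 Mb no bin exceeded 34.1%. Read with a division at 19 Mb, a position chosen after these values were seen, the rest of chromosome 4 falls into 1252 rows with 68.3% at 0 and 2408 rows with 26.5% at 0. The first of these differs from the short arm by less than the bins of the arm differ among themselves. The contrast between the short arm and the rest thus mixes a stretch of like level with one of far higher level. Rows above 0 in both libraries had medians of 2.80 and 2.85 FPKM before 19 Mb and of 7.57 FPKM in either library after it.

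**Figure D2:**
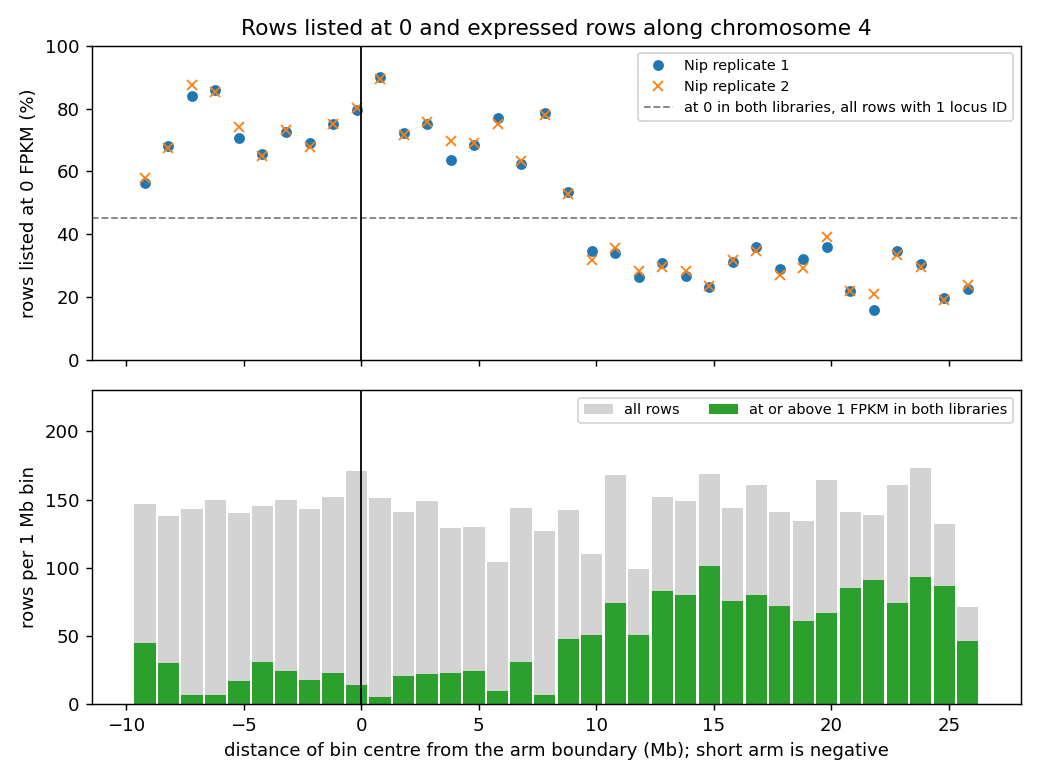
Top, share of rows (%) listed at 0 FPKM in each Nip library in bins of 1 Mb along chromosome 4, with the share at 0 in both libraries over all rows (45.2%) as a dashed line. Bottom, rows per bin (grey) and those at or above 1 FPKM in both libraries (green). The x axis is the distance in Mb from the arm boundary, with the short arm negative. High shares run on past the boundary and drop near 10 Mb beyond it.

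The density of annotated loci did not follow this pattern. The arm held 149 rows per Mb and the rest 142 rows per Mb. Across the 12 chromosomes, 378 bins of 1 Mb had 20 rows or more, with a median of 42.8% at 0 in both libraries. In 100 of them the share was 60% or more, and 17 of these lay on chromosome 4 and 10 on chromosome 10. Most of the 100 thus lay on other chromosomes, and chromosome 12 held more of them than chromosome 10. Of the 7 bins at 80% or more, 3 were on chromosome 4, at 2, 3 and 10 Mb. The others were on chromosomes 5, 6 and 8, and the highest of all, 88.0%, was on chromosome 6 at 18 Mb. Over whole chromosomes the share at 0 in both libraries ran from 34.5% on chromosome 3 to 53.5% on chromosome 12. It was 49.0% on chromosome 4 and 52.3% on chromosome 10. High shares were therefore not particular to chromosomes 4 and 10.

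RefSeq annotates far fewer genes in this region than the table has rows. Locus IDs could be set beside RefSeq genes of assembly ASM3414082v1, and genes were counted between the same pair of landmarks in both annotations. From the start of the chromosome to SUS7, a sucrose synthase gene just inside the boundary, the table had 1439 rows and RefSeq 402 protein-coding genes, or 27.9 per 100 rows. In the same stretch 428 rows were above 0 in at least 1 library. From the potassium transporter gene HAK1 to the end of the chromosome there were 2307 rows and 1777 protein-coding RefSeq genes, or 77.0 per 100 rows, and 1702 rows above 0. Between SUS7 and HAK1 the count was 33.8 per 100 rows. The lowest ratio on the arm, 17.5 per 100 rows, lay between APX3 and SUS7, where RefSeq also lists 25 tRNA genes against 1 or none in the other stretches of the arm. Which rows are transposon genes could not be told from the table, and whether the rows RefSeq lacks are the rows at 0 was not tested.

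Rows at 0 were shorter than other rows, on the arm as elsewhere. Their median span was 2264 bp, against 3955 bp for the remaining rows of the arm, and on the rest of the chromosome these were 1805 and 3815 bp. These medians include rows that share an interval, whose span is that of the whole interval. The share at 0 was therefore also set side by side within classes of span, for rows with an interval of their own. Up to 1000 bp, 87.3% on the arm and 74.2% on the rest were at 0, the smallest gap of the 5 classes. At a span over 1000 and up to 2000 bp, 77.4% on the arm and 47.1% on the rest were at 0. Over 4000 and up to 8000 bp the shares were 60.9% and 29.6%, and above 8000 bp 41.1% of 56 rows and 16.0% of 131 rows.

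**Figure D3:**
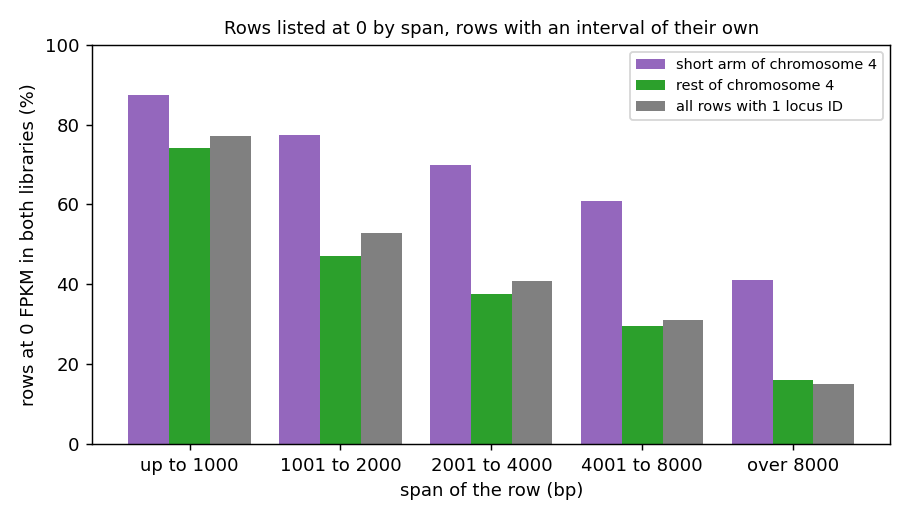
Share of rows (%) at 0 FPKM in both Nip libraries by span of the row in bp, for rows that share their interval with no other row. In each of the 5 span classes the short arm lies above the rest of chromosome 4, with the smallest gap at up to 1000 bp (87.3% and 74.2%).

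Rows at 0 came in long stretches. Runs here and below were read over rows with 1 locus ID only. On the arm, 24 rows with several IDs, 40 with no ID and 3 left out by name may lie within them. On the arm, 27 runs of 10 or more neighbouring rows at 0 in both libraries held 405 rows, 28.0% of the members. On the rest of the chromosome 21 such runs held 8.20% of rows. Of these, 19 lay before 19 Mb and held 22.1% of the rows there, and from 19 Mb on 2 runs held 0.955%. Such stretches were therefore not limited to the arm. The share of rows in runs also depends on how common rows at 0 are, and no allowance was made for this. Rows at 0 were 70.0% on the arm, 68.3% before 19 Mb and 26.5% from 19 Mb on. The longest on the arm was 29 rows from LOC_Os04g04400 to LOC_Os04g04710, on chromosome 4 from 2092751 to 2263374, and a run of 29 rows also lay beyond the boundary, from LOC_Os04g19270 to LOC_Os04g19560 (10714759 to 10891487). The next was 26 rows from LOC_Os04g16170 to LOC_Os04g16440 (8782662 to 8944911), and 25 rows from LOC_Os04g17200 to LOC_Os04g17440 followed (9432773 to 9544726). Coordinates are those of the table, with a build not given in the sources used here.

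Some expressed loci lay side by side. Of the 213 rows at or above 1 FPKM in both libraries, 108 (50.7%) stood in 39 runs of 2 or more such rows. The share was 54.1% of 194 such rows between the boundary and 19 Mb, and 84.7% of 1272 from 19 Mb on. Here too no allowance was made for how common such rows are. They were 14.8% of rows on the arm, 15.5% before 19 Mb and 52.8% from 19 Mb on. The longest run on the arm, 8 rows from LOC_Os04g01470 to LOC_Os04g01540, lay near the tip (316365 to 372423). Its lowest member, LOC_Os04g01510, was at 2.57 and 2.91 FPKM and its highest, LOC_Os04g01470, at 45.2 and 45.1 FPKM. A run of 6 rows, from LOC_Os04g03980 to LOC_Os04g04030 (1813949 to 1870097), lay just ahead of the quietest bins. Its means went from 1.19 FPKM to 45.1 FPKM at LOC_Os04g04020.

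The momilactone cluster was expressed amid loci at 0. Momilactones are diterpenoid defence compounds of rice that were isolated from its husks and are also released from its roots. Of the genes for their synthesis, 6 were listed, and these sit together on this arm, in an interval of 169 kb from 5318059 to 5486773. Genes of the pathway outside this list were not examined. The interval was cut at 2 of the listed genes. All 6 listed genes were well above 1 FPKM in both libraries, whereas of the 20 other rows in the interval 18 were at 0 in both libraries and 2 were under 1 FPKM. Over the arm 70.0% of rows were at 0 in both libraries, and over all rows 45.2%. At or above 1 FPKM in both were 14.8% and 36.9%. Over the 6 genes the median level came to 16.6 FPKM in replicate 1 and to 15.5 in replicate 2. Medians over all rows with 1 locus ID were 0.0364 and 0.0344 FPKM, and over those above 0 in both libraries 6.47 and 6.34 FPKM.

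The first steps of the pathway had the highest levels. CPS4 (LOC_Os04g09900, 5318059 to 5326427), the diterpene cyclase that makes syn-copalyl diphosphate, was at 66.9 FPKM in replicate 1 and 65.3 in replicate 2, a mean of 66.1 ± 1.15 (SD, n = 2). It ranked 15 among the members of the arm. KSL4 (LOC_Os04g10060, 5428337 to 5434028), which turns that product into syn-pimaradiene, was at 33.0 and 34.0 FPKM, a mean of 33.5 ± 0.707. Every value of CPS4 lay above every value of KSL4.

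The listed genes of the later, oxidative steps were lower. CYP99A2 (LOC_Os04g10160, 5484767 to 5486773) and CYP99A3 (LOC_Os04g09920, 5332328 to 5334479) encode cytochrome P450 enzymes that oxidise the pimaradiene. CYP99A2 was at 17.2 and 16.9 FPKM, and CYP99A3 at 14.0 and 13.5 FPKM. OsMAS (LOC_Os04g10010, 5385721 to 5387215), the dehydrogenase of the last step to momilactone A, was at 7.19 and 7.16 FPKM. Its listed neighbour LOC_Os04g10000, which had no symbol in RefSeq, was at 16.0 and 14.0 FPKM. CYP99A2 lay above LOC_Os04g10000, CYP99A3 and OsMAS in every library value, and OsMAS lay below them all. LOC_Os04g10000 and CYP99A3 were neighbours in this order, and the lower value of the first, 14.04 FPKM, all but met the higher value of the other, 14.00 FPKM. CYP99A2 and CYP99A3 are related genes, as are OsMAS and LOC_Os04g10000, so fragments shared by copies may blur their separate values. The 6 genes differed between the libraries by 0.005 to 0.18 on the log2(FPKM + 1) scale.

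**Figure D4:**
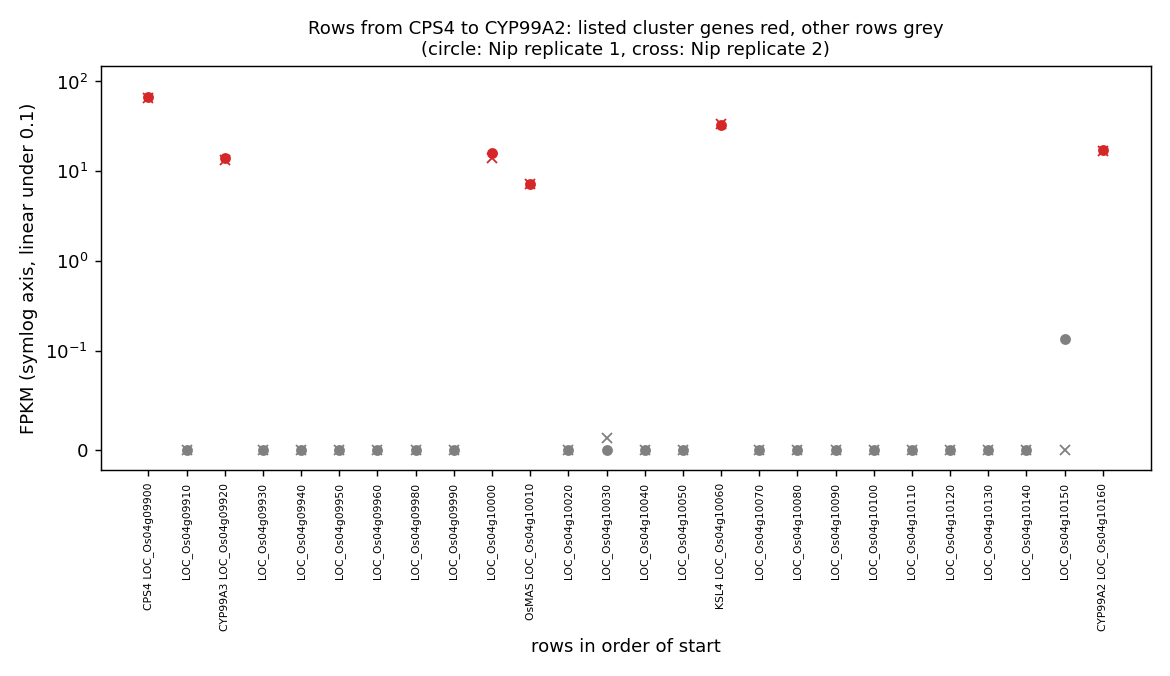
FPKM (symlog axis, linear under 0.1) of the 26 rows from CPS4 to CYP99A2 in order of start, with Nip replicate 1 as circles and replicate 2 as crosses. The 6 listed cluster genes (red) lie between 7.16 and 66.9 FPKM, and of the 20 other rows (grey) 18 are at 0 in both libraries. Over the whole arm 70.0% of rows are.

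The other listed genes of the arm that could be given a RefSeq name were mostly expressed. They came from a list added after the files were seen, which does not cover all RefSeq genes of the arm. From the start of the chromosome to SUS7 alone RefSeq has 402 protein-coding genes. The list gave 14 IDs on 15 rows, of which 11 rows reached 1 FPKM in both libraries and 1 was at 0 in both. Over the arm 14.8% of rows and over all rows 36.9% reached 1 FPKM in both libraries. Genes with a name are a selected set, so their share does not speak for the arm.

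The 4 with the highest means were between 14.9 and 24.3 FPKM. ARP9 (LOC_Os04g09860, 5290868 to 5306541), an actin-related protein gene, had a pair of rows on the same interval, of which 1 was at 20.6 and 21.5 FPKM and the other at 0 in both libraries. ETFB (LOC_Os04g10400), the beta subunit of the mitochondrial electron transfer flavoprotein, was at 24.3 and 18.9 FPKM. PIP2-6 (LOC_Os04g16450), a plasma membrane aquaporin, was at 15.9 FPKM in both libraries. ETR2 (LOC_Os04g08740), a receptor of the hormone ethylene, was at 14.9 and 15.1 FPKM.

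EXPA1 (LOC_Os04g15840), an expansin that loosens walls, was at 7.23 and 8.01 FPKM. GT43H (LOC_Os04g01280), of the glycosyltransferase family that builds xylan, was at 6.36 and 7.63 FPKM. Both were higher in replicate 2.

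The other named genes were below 3 FPKM in both libraries. The row named Agglutinin (LOC_Os04g09390), a lectin gene, was at 2.68 and 1.95 FPKM. LECRK4 (LOC_Os04g12600), a receptor kinase with a lectin domain, was at 1.63 and 1.20 FPKM, and APX3 (LOC_Os04g14680), an ascorbate peroxidase that removes hydrogen peroxide, was at 1.38 and 1.70 FPKM. ADC2 (LOC_Os04g01690), an arginine decarboxylase of polyamine synthesis, was at 1.45 and 1.35 FPKM. These 4 genes had values between 1.20 and 2.68 FPKM. Of the 2 phosphate transporter genes, PT4 (LOC_Os04g10750) was at 1.497 and 1.308 FPKM and PT13 (LOC_Os04g10800) at 0.0873 and 0.0932 FPKM, with no overlap between them. FH18 (LOC_Os04g01070), a formin that nucleates actin filaments, was at 0.392 and 0.539 FPKM. SUS7 (LOC_Os04g17650), which splits sucrose, was at 0.0308 and 0.0494 FPKM, the lowest of these genes apart from the ARP9 row at 0.

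One locus carried most of the arm's summed FPKM. LOC_Os04g02670 (1008360 to 1010071), which has no name in the sources used, was at 12641 FPKM in replicate 1 and 7417 in replicate 2, and it ranked 2 among all rows with 1 locus ID by mean. It made up 72.6% of the arm's summed FPKM in replicate 1 and 58.2% in replicate 2. The arm's share of the summed FPKM of the table was 2.39% and 1.77%, and without that locus 0.665% and 0.747%. With that row replicate 1 had the higher share, and without it replicate 2 had. The rest of chromosome 4 held 5.76% and 5.81%.

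The next highest loci were steadier, with an exception. LOC_Os04g17100 (9367934 to 9369158) was at 500.6 and 503.5 FPKM, and LOC_Os04g10240 (5526856 to 5530346) at 183 and 224 FPKM. LOC_Os04g02820 (1093336 to 1098664) was at 169 and 174 FPKM, and LOC_Os04g08350 (4457399 to 4461845) at 129 FPKM in both libraries. The exception was LOC_Os04g16722, at 191 and 714 FPKM, which is 3.73-fold higher in replicate 2. Its row shares an interval of 109731 bp (9093345 to 9203075) with 40 other members, so its position within that interval is not given. Of those 41 members 33 were at 0 in both libraries. LOC_Os04g02900 and LOC_Os04g01300 closed the group at 100 FPKM or more, with 115 and 119 FPKM and with 116 and 117 FPKM. The remaining 12 of the 20 highest rows had means from 54.1 to 97.5 FPKM, CPS4 among them.

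High rows lay near each other at a few places. LOC_Os04g02820, LOC_Os04g02830, LOC_Os04g02900 and LOC_Os04g02910 all started between 1093336 and 1148797. LOC_Os04g01230, LOC_Os04g01240, LOC_Os04g01290 and LOC_Os04g01300 started between 177270 and 226837, in the bin at the tip. LOC_Os04g05080 (2511460 to 2514770), at 51.4 and 56.7 FPKM, was the only one of the 20 between 2 and 4 Mb.

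The libraries gave close values for most members. Of 229 members with a mean of at least 1 FPKM, 4 (1.75%) differed at least 2-fold on the log2(FPKM + 1) scale, against 0.699% of all 20461 such rows. All 4 were higher in replicate 2. With a pseudocount of 0.1 the count was 10, of which 5 were higher in each library, and at a mean of at least 5 FPKM it was 2. The 4 were LOC_Os04g16722 and LOC_Os04g16792 of the shared interval, the latter at 0 and 2.01 FPKM, LOC_Os04g14390 at 0 and 3.54 FPKM, and LOC_Os04g01130 at 4.68 and 11.6 FPKM. LOC_Os04g14390 spans 235 bp, the shortest row among members with a mean of at least 1 FPKM. Among members with that mean and higher in replicate 1, the largest difference was at LOC_Os04g01170, with 2.66 and 1.07 FPKM, a log2 difference of 0.82. LOC_Os04g02890, LOC_Os04g13190 and LOC_Os04g15880, each at 1.57 to 1.62 FPKM in replicate 1 and 0.509 to 0.651 in replicate 2, were next beside LOC_Os04g02670. LOC_Os04g02450, at 2.96 and 6.67 FPKM, was just under the 2-fold limit in the other direction. These values belong to single rows. A second row of LOC_Os04g02450 was at 0.560 and 0.460 FPKM, and a second row of LOC_Os04g01170 at 0 in both libraries. The median log2 difference of the members, replicate 1 minus replicate 2, was -0.0092.

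**Figure D5:**
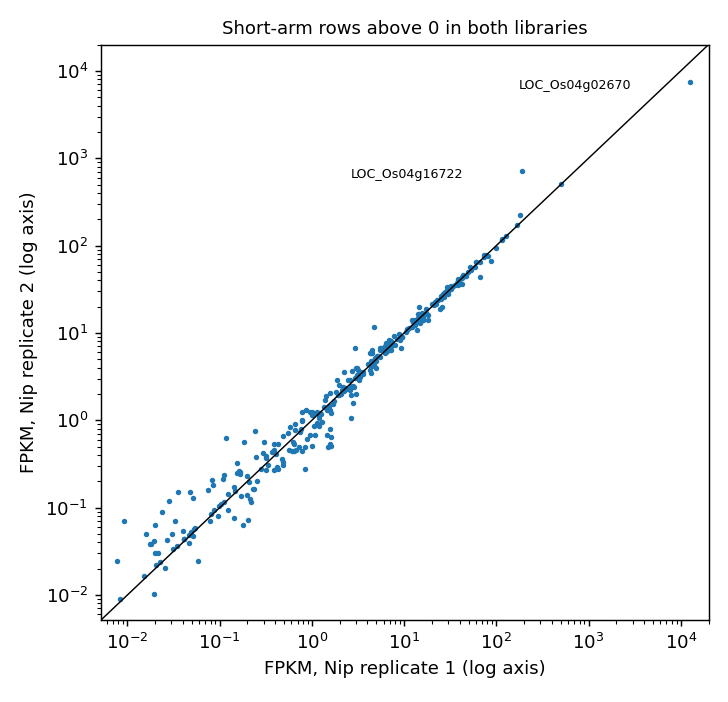
FPKM in Nip replicate 1 (x, log axis) against replicate 2 (y, log axis) for members of the arm above 0 in both libraries, with the line of equal values. Most points follow the line, and LOC_Os04g16722 (191 and 714 FPKM) and LOC_Os04g02670 (12641 and 7417 FPKM) lie off it at the high end.

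Listing at 0 was also much alike in the libraries. Of the rows at 0 in replicate 1, 96.0% were at 0 in replicate 2, close to the 94.4% over all rows with 1 locus ID. A further 42 rows were at 0 in replicate 1 alone and 48 in replicate 2 alone, together 6.23% of the members against 5.59% of all rows. In the library where they were not at 0, these 90 rows had a median of 0.0452 FPKM and at most 3.54 FPKM.

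Some values rest on intervals that several rows share. There were 183 such members, in 33 intervals, and 53.6% of them were at 0 in both libraries, against 72.4% of the 1261 members with an interval of their own. The widest interval, 266874 bp from 7423783 to 7690656, held 40 members, of which 29 were at 0 and 3 reached 1 FPKM in both libraries. It includes LOC_Os04g13480, at 3.11 and 3.31 FPKM. How fragments that match several places of the genome were treated is not stated, and its part in the values of repeated loci was not tested.

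The 3 last members and the 3 first rows beyond the boundary are given by position, and so few rows mark no step there. LOC_Os04g17669 was at 0.388 and 0.273 FPKM, LOC_Os04g17680 at 15.5 and 17.0 FPKM, and LOC_Os04g17700 (9695099 to 9703565) at 16.2 and 16.4 FPKM. LOC_Os04g17710, LOC_Os04g17720 and LOC_Os04g17730, just outside, were at 0 in both libraries. So were 76.6% of rows from 9 to 10 Mb and 87.4% from 10 to 11 Mb.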

How the data were processed

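The table of FPKM values was made by the authors and used as deposited. TopHat is named, without a version, in the submitters' processing notes; the estimator and annotation were not stated. FPKM holds no counts, so depth is unknown and neither a count model nor a counting interval was used. The names ck1 and ck2 were matched to the 2 Nip samples by replicate number, a reading that the labels do not state. Not used were 4 other library names. Of these, 1 is a further control name, so there are more control names than Nip samples, and its values enter nothing here. The other 3 are mutant names, which stand against 2 osrdr2-3 samples. The planned limma comparison of osrdr2-3 with Nip was not made, and no adjusted p is given. The mutant names could not be matched to single samples, though a comparison by genotype alone would not need that.

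Values were computed in Python 3.11.15 with pandas 2.3.3 and numpy 2.4.6. The scripts were tested on simulated data. The arm's level is given by the share at or above 1 FPKM, since its median was 0. Rows named are the 20 highest by mean, 3 on each side of the boundary, the momilactone list, the 5 largest library differences each way (the extremes are printed), and the longest and shortest rows at a mean of at least 1 FPKM. Ends of runs, members of runs and other RefSeq-named genes were added after the files were seen. A RefSeq symbol was given where order matched, starts lay within 250 kb and spans within 10%, for 19 of 22 listed IDs. Members and lists were chosen with earlier results of these data known.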

Additional observations from a re-analysis of the deposited data

How the results depend on the processing

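The arm had the larger share of rows at 0 and the smaller share at or above 1 FPKM under every alternative run. The difference in the share at 0, arm minus rest, was 29.2 percentage points. It was 30.0 with rows under 0.1 FPKM counted (29.9992) and 25.9 with rows under 1 FPKM. It was 27.5 with the arm ending 1 Mb earlier, 30.9 with the rest starting 1 Mb later, 30.02 without rows over 50 kb, 31.1 without rows of 500 bp or less and 29.4 with rows of several locus IDs. With 1 library left out it was 29.5 to 29.6. The difference at or above 1 FPKM was -25.3 points. It was -24.2 and -26.7 under the 2 boundary settings, -25.55 and -27.0 under the 2 span settings, -25.9 with several IDs, -12.6 among rows above 0 in both libraries, and -25.64 to -25.56 with 1 library left out.

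Alternatives added after seeing the data gave 28.0 and -23.4 points without shared intervals, and 43.6 and -38.1 points with the rest starting at 19 Mb. Without LOC_Os04g02670 the arm's mean share of summed FPKM was 0.706% in place of 2.08%. The count of members differing at least 2-fold between libraries was 10 with a pseudocount of 0.1, 6 without a filter on low values and 2 at a mean of at least 5 FPKM, in place of 4. The members added without the filter were both higher in replicate 1: LOC_Os04g05500 at 1.68 and 0 FPKM, and LOC_Os04g16728 at 1.49 and 0 FPKM. What sets these shifts was not tested.

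Other settings of the osrdr2-3 comparison (replicate block, pseudocount, filter, trend, scaling and left-out libraries) were not run. No paired analysis was possible because the osrdr2-3 libraries could not be matched to samples, and so not to replicate numbers. An unpaired comparison by genotype would not need that match, and it was not run either.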
